A study of Homo sapiens with 4 samples.

Results

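Of the 18789 N6-methyladenosine (m6A) sites that were predicted in C643 cells, 472 (2.51%, 95% Wilson interval 2.30 to 2.75) lay at an adenosine that was not followed by cytosine. They were picked by sequence alone: the base directly after the site, read on the site's strand of GRCh38, was A, G or T (T stands for U of the RNA throughout). C643 is an established line from an anaplastic thyroid carcinoma, and the cells were untreated and labelled WT. Their polyadenylated RNA was fragmented and taken through miCLIP2 with a rabbit anti-m6A antibody from Synaptic Systems, with 3 biological replicates and 4 libraries, since 2 technical libraries were made for replicate 1. The authors pooled the replicates into 1 list of sites, each with a score between 0 and 1 from the classifier m6Aboost, so neither the spread between replicates nor the read depth at a site is known. All intervals and p-values below therefore speak of the variation among sites or host genes and not of the variation between cultures.

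Most m6A in mRNA is laid down during transcription by a methyltransferase complex whose catalytic subunit is METTL3 and whose RNA-binding partner is METTL14. The complex prefers the motif DRACH, in which D is any base but C, R is a purine and H is any base but G, and the methylated A is always followed by C. The marks are best known around stop codons and in 3′ UTRs, where reader proteins such as the YTHDF family bind them, while long internal exons also carry them and short exons rarely do. In miCLIP the antibody is crosslinked to the RNA and reverse transcription ends next to the crosslink, so that a site is placed to the nucleotide.

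The 21 nt around the highest scoring sites show which sequences took the place of DRACH. The site A and the base after it are in capitals, all positions are on GRCh38 and each sequence reads 5′ to 3′ on the strand named. The first of the following had the highest score among sites followed by T and the other is the best of 3 in its gene, and both were at the pentamer GGATT, which is the METTL3 motif GGACT with T in place of C.
KIAA0930 (chr22:45196427-45196447, minus strand): cagaatttggATtctgagggt
LTBR (chr12:6391048-6391068, plus strand): gccctaagggATtaaggctca

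The highest scores among sites followed by G were again preceded by GG, but the bases after the A differed between the 3 of them.
PI4K2A (chr10:97673788-97673808, plus strand): aagcctggggAGtggggtgca
IMP3 (chr15:75639543-75639563, minus strand): ctgatgctggAGattctatga
ARHGDIA (chr17:81868104-81868124, minus strand): accatccaggAGgctgggtat

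Sites followed by A were mostly of another kind, shown by 3 of the highest scoring ones that had a listed DRACH site beside them. In each, the second capital A is followed by CT and is itself the A of the DRACH pentamer GAACT, which was also listed.
MAPK12 (chr22:50253197-50253217, minus strand): ggagcacctgAActttctgga
CSNK1D (chr17:82244554-82244574, minus strand): cccccacgtgAActcggttgt
ENG (chr9:127815356-127815376, minus strand): agcactggtgAActgagctgg

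The base after the A was T at 329 of the 472 sites (69.7%, 65.4 to 73.7), A at 84 (17.8%, 14.6 to 21.5) and G at 59 (12.5%, 9.82 to 15.8). The bases before the A held to the DRACH rule almost throughout. D at the second base before the site and R at the base before it were both present at 453 sites (95.97%, 93.8 to 97.4), and at 405 sites (85.8%, 82.4 to 88.7) the base after the A was the only departure from DRACH. G preceded the A at 401 sites (84.96%, 81.5 to 87.9), against 77.3% of DRACH sites (76.6 to 77.9), while C preceded it at 0 of 472 sites (upper Wilson bound 0.807%). The second base after the A was T at 282 sites (59.7%, 55.3 to 64.1), close to the 60.4% (59.6 to 61.1) at DRACH sites. Of these 282, however, 191 were at the single pentamer GGATT, and at 71 of the 84 sites followed by A this base was C. These sequence shares, and those of pentamers below, are descriptions without a test, because the 21 nt around each peak were an input of the classifier that made the list. The classifier had been trained on mouse embryonic stem cell peaks, with peaks reduced in Mettl3 knockout cells as positives. Positives at the rarest pentamers had been removed, and the paper names GGATT among the positive motifs outside DRACH.

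The 472 sites used 47 pentamers, and 1 of them dominated. GGATT accounted for 191 sites (40.5% of the 472), followed by TGAAC with 39, GAATT with 29, GGAAC with 23, TGATT with 17 and GGAGT with 16. GGATG had 13 sites, GGATA and TGATG 12 each and GGAGC 11. GGA came before the varying base at 297 sites (62.9%, 58.5 to 67.2), of which 222 were followed by T, 43 by G and 32 by A. TGA came before it at 90 sites, and there the order was turned: 42 were followed by A, 35 by T and 13 by G.

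How often a sequence was listed was set against how often it occurs in the exons of the 3714 host transcripts, the transcripts that held at least 1 listed site of any kind in an exon. Of 9149 occurrences of GGATT, 183 were listed (2.0%, 1.73 to 2.31). GGACT, which differs from it only in the base after the A, was listed at 3837 of 14867 occurrences (25.8%, 25.1 to 26.5), and DRACH as a whole at 7.29% (7.18 to 7.40) of 216758. For TGAAC the listed share was 0.349% (0.254 to 0.478), for GAATT 0.297% (0.200 to 0.442), for GGATA 0.240% (0.138 to 0.420), for TGATT 0.199% (0.124 to 0.318) and for GGAAC 0.179% (0.118 to 0.271). The interval of GGATT lay clear of those of these 5 pentamers, each of which overlapped the next in order. The lowest share among the 10 most frequent pentamers was 0.0343% (0.0191 to 0.0614), at GGAGC. Over every A that is not followed by C the share was 452 of 2128038 (0.0212%, 0.0194 to 0.0233), with 0.0617% for A before T, 0.0122% before A and 0.00588% before G.

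The base that follows GGATT went with the listed share. Before G, GGATT was listed at 3.55% of 1944 occurrences (2.81 to 4.47), before C at 2.44% of 2297 (1.88 to 3.15), before T at 1.68% of 2913 (1.27 to 2.22) and before A at 0.451% of 1995 (0.238 to 0.855). By the base before GGATT the shares spread less, with 2.41% (1.92 to 3.04) after T and 1.51% (1.13 to 2.02) after G as the extremes.

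The scores of the 472 sites were low within the list. Their median was 0.551 with quartiles of 0.521 and 0.610 and a range from 0.50 to 0.784, against a median of 0.769 at the 16664 DRACH sites and 0.653 at the 1653 sites that were followed by C but were not DRACH. By the base after the A, the median was 0.571 for T, 0.531 for A and 0.525 for G. GGATT sites had a median of 0.614, while the 281 sites at all other pentamers had one of 0.530. A score of at least 0.6 was reached by 136 sites (28.8%, 24.9 to 33.1), of which 110 were at GGATT, and by 85.7% of DRACH sites. At least 0.7 was reached by 24 sites (5.08%, 3.44 to 7.45), and all 24 were at GGATT. No score difference was tested, since sequence was an input of the score.

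**Figure D1:**
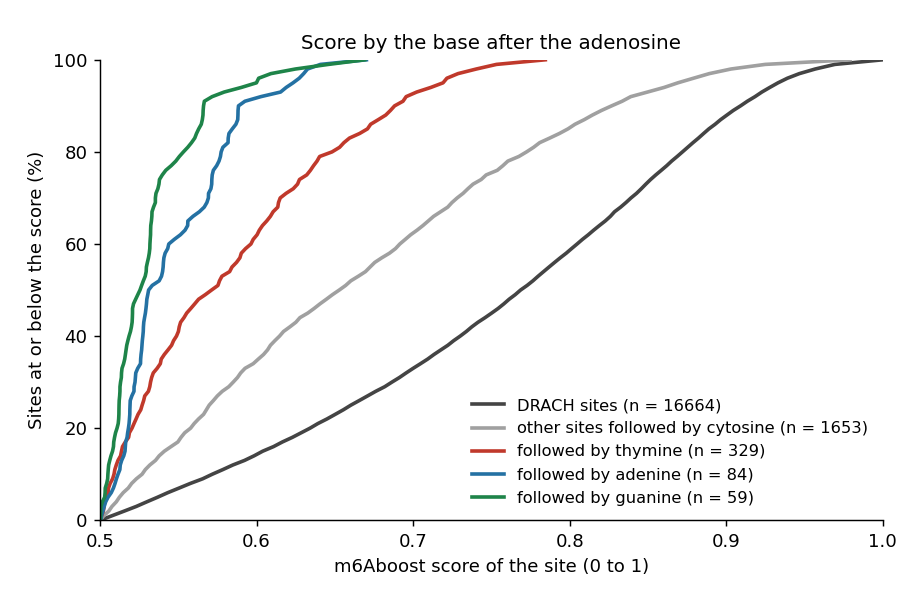
Cumulative curves of the m6Aboost score (x axis, a fraction without unit) against the percentage of sites at or below it (y axis) for DRACH sites, other sites followed by cytosine and the 472 sites split by the base after the adenosine. The 3 coloured curves rise first, with medians of 0.571 (thymine), 0.531 (adenine) and 0.525 (guanine), and none of them reaches past 0.784.

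Single sites show the range. The highest score, 0.784, belonged to the site in the 3′ UTR of KIAA0930, 741 nt after the stop codon in the last of 10 exons, and a listed DRACH site with a score of 0.841 lay 44 nt upstream. Among sites followed by G, PI4K2A, a phosphatidylinositol 4-kinase, had 0.669 and lay 58 nt after the stop codon. IMP3, a protein of the U3 small nucleolar particle, had 0.629 and ARHGDIA 0.602. Among sites followed by A, MRPS28, a protein of the mitochondrial ribosome, had 0.670, MAPK12, the p38 gamma kinase, 0.635 and ATG9A, a membrane protein of autophagosome formation, 0.631. The lowest scores, all 0.50, were in LARP6, which binds collagen mRNAs, in the arginine methyltransferase gene PRMT5 and in MSRB1, a methionine sulfoxide reductase, which was also the lower end of the scores in the whole list.

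Sites without C after the A were concentrated in 3′ UTRs. On GENCODE transcripts, 364 of the 472 lay in a 3′ UTR (77.1%, 73.1 to 80.7), 85 in coding sequence (18.0%, 14.8 to 21.7) and 0 in a 5′ UTR (upper Wilson bound 0.807%). The other 23 comprised 12 in an exon of another transcript than the one chosen, 6 in introns, 3 in exons of noncoding transcripts and 2 where transcripts had weak support only. DRACH sites were in 3′ UTRs in 51.4% of cases, in coding sequence in 39.4% and in 5′ UTRs in 2.50%. Among exonic sites of coding transcripts, 81.1% of 449 were in a 3′ UTR against 55.1% of 15551 DRACH sites. A logistic regression with standard errors clustered by host gene gave an odds ratio of 3.49 (2.71 to 4.49, n = 449 sites, p = 2.74e-22, adjusted over 4 tests 1.10e-21). The odds ratio was 6.04 without GGATT and 2.06 (1.63 to 2.61) within the genes that held both kinds of site. These odds ratios do not account for how often the sequences occur in each region. Per occurrence in host transcript exons, GGATT was listed at 2.479% in 3′ UTRs and 1.704% in coding sequence, with intervals that overlapped. DRACH was listed at 9.05% and 6.29%, and all other A residues not followed by C at 0.0241% and 0.00333%. The part of motif occurrence in the difference in 3′ UTR share was not tested. Transcript region was also an input of the classifier, and its part in this difference was not tested.

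The region differed with the base after the A. Of the 84 sites followed by A, 79 (94.0%, 86.8 to 97.4) lay in a 3′ UTR and 2 in coding sequence. Of the 59 followed by G, 48 lay in a 3′ UTR and 8 in coding sequence. GGATT had 53 of 191 sites (27.7%, 21.9 to 34.5) in coding sequence and 127 (66.5%, 59.5 to 72.8) in 3′ UTRs. For sites followed by T at other pentamers these shares were 15.9% (10.8 to 22.96) and 79.7% (72.2 to 85.6).

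**Figure D2:**
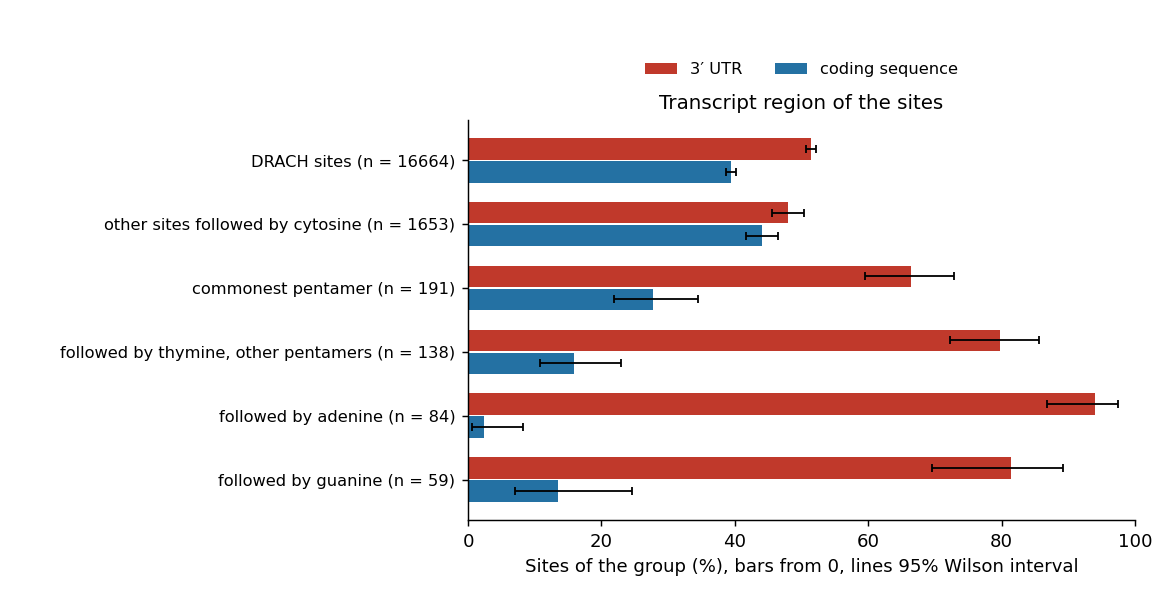
Percentage of sites in 3′ UTRs and in coding sequence (x axis) for 6 groups of sites, with 95% Wilson intervals as lines. The 3′ UTR share is 51.4% for DRACH sites, 66.5% for the commonest pentamer without cytosine (GGATT) and 94.0% for sites followed by adenine.

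A difference in closeness to the stop codon was not detected at the window chosen. A position within 200 nt of the stop codon, on either side, was found for 32.7% of the 449 sites and 33.5% of DRACH sites (odds ratio 0.967, 0.785 to 1.19, n = 449, p = 0.750). With a window of 400 nt the odds ratio turned to 1.35 (1.10 to 1.64, n = 449, p = 0.00348), and with the other sites followed by C as the comparator it was 1.06. In 3′ UTRs the median distance from the stop codon was 304 nt (quartiles 148 and 564) against 296 nt at DRACH sites (122 and 660). The last exon held 89.1% of the 449 sites (85.9 to 91.6) and 76.1% of DRACH sites (75.4 to 76.8).

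Within 100 nt of an exon junction the share of coding sites was higher than at DRACH sites, a difference seen at pentamers other than GGATT. Of 81 coding sites in spliced transcripts, 38 (46.9%, 36.4 to 57.7) were within 100 nt of a junction, against 30.6% of 6251 DRACH sites (odds ratio 2.0, 1.26 to 3.20, n = 81, p = 0.00352, adjusted 0.00469, same regression). With a window of 200 nt the odds ratio was 1.46 (0.885 to 2.39, n = 81, p = 0.139) and at a score of at least 0.6 it was 1.59 (0.639 to 3.97, n = 22, p = 0.318), so the difference did not pass there. Without GGATT it was 4.76 (2.24 to 10.1): 21 of the 31 coding sites at other pentamers lay near a junction, and 17 of the 50 at GGATT. These odds ratios do not account for how often the sequences occur near junctions. Within 100 nt of a junction lay 721165 of the 961896 other A residues not followed by C in coding sequence. For DRACH motifs these counts were 78787 of 104335 and for GGATT 2524 of 3111.

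Set against occurrences, both GGATT and DRACH were listed most often in coding sequence far from junctions. In coding sequence more than 100 nt from a junction, or in a transcript without one, GGATT was listed at 36 of 587 occurrences (6.13%, 4.46 to 8.37). Within 100 nt it was listed at 17 of 2524 (0.674%, 0.421 to 1.08), and in 3′ UTRs away from junctions at 126 of 5058 (2.49%, 2.10 to 2.96). In 5′ UTRs 0 of 680 were listed (upper Wilson bound 0.562%). DRACH was listed at 18.2% (17.7 to 18.7), 2.43% (2.32 to 2.54), 8.99% (8.81 to 9.18) and 3.16% (2.88 to 3.48) in the same 4 places. Coding sequence near junctions was last of these for DRACH, while for GGATT its interval overlapped that of the 5′ UTR. In 3′ UTRs near junctions DRACH was listed at 13.3% (11.6 to 15.2) and GGATT at 1 of 66 occurrences. Of all other A residues not followed by C in coding sequence, 0.00457% (0.00255 to 0.00818) were listed far from junctions and 0.00291% (0.00190 to 0.00445) near them, with intervals that overlapped, and 0.0241% (0.0212 to 0.0274) in 3′ UTRs away from junctions.

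**Figure D3:**
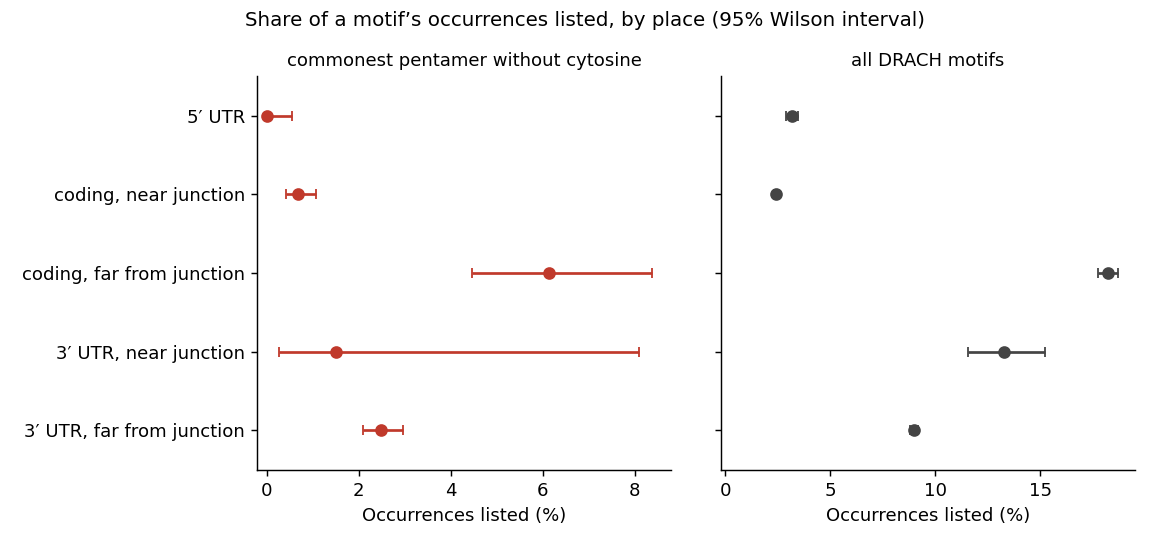
Percentage of all occurrences of a motif in host transcript exons that were listed (x axes, with different ranges), by place in the transcript, for GGATT (left) and all DRACH motifs (right), with near and far split at 100 nt from an exon junction and lines as 95% Wilson intervals. Both are listed most often in coding sequence far from junctions, 6.13% and 18.2%, while GGATT has 1.52% in 3′ UTRs near junctions with only 66 occurrences behind it.

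The site next to a DRACH A was the most frequent arrangement around sites followed by A. At 71 of the 472 sites the very next base was the A of a DRACH motif, and at 70 of these (98.6%, 92.4 to 99.8) that A was listed too. By pentamer these were all 39 TGAAC, all 23 GGAAC and all 8 AGAAC sites and 1 more. A listed DRACH site within 5 nt in the genome was found for 87 sites (18.4%, 15.2 to 22.2) against 2.30% of DRACH sites (2.09 to 2.54), although the motif itself does not allow DRACH sites within 3 nt of each other. In all 87 cases, in 84 genes, the DRACH site had the higher score, with a median of 0.913 against 0.541 and a median difference of 0.357 (0.0029 to 0.457). Sequence was an input of both scores and most training positives of the classifier were at DRACH, so this order is a description and was not tested. Away from the next base, the most frequent positions were 5 nt upstream with 10 sites (2.12%, against 0.540% at DRACH sites) and 6 nt downstream with 8 (1.69%, against 0.810%). These positions were named because their counts were the highest, and no test was made. The DRACH motif, listed or not, stood 5 nt upstream at 3.18% of the 472 sites and 1.51% of DRACH sites. Of the 8 sites with one 6 nt downstream, 5 were followed by A. PCED1A shows the upstream spacing, with a score of 0.655.
PCED1A (chr20:2835446-2835466, minus strand): ggtagactggATcttgggctg

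In this window the listed DRACH site is the A of the agact that comes before the site, and it had a score of 0.658.

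**Figure D4:**
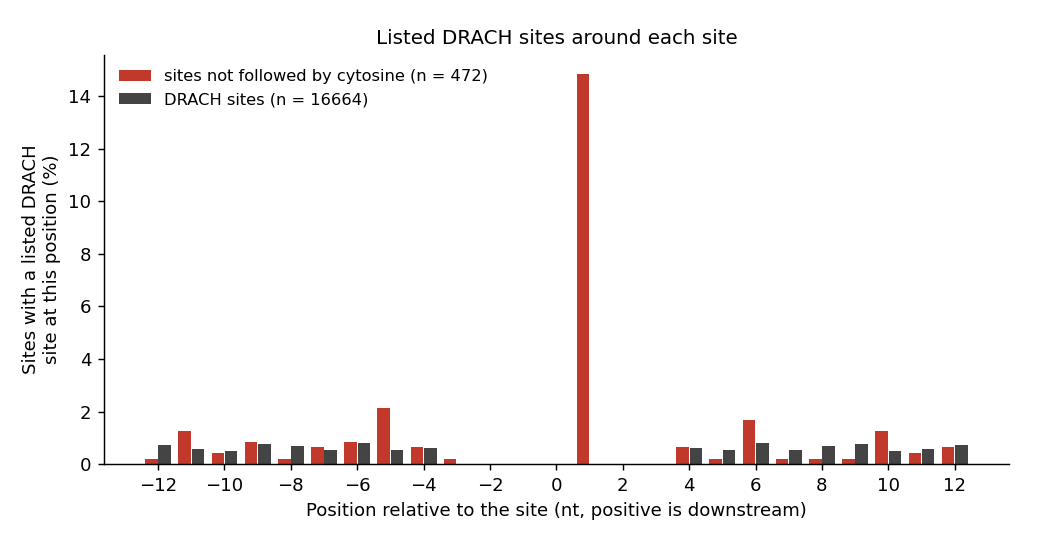
Percentage of sites with a listed DRACH site at each position from 12 nt upstream to 12 nt downstream (x axis, nt), for the 472 sites and for DRACH sites. The bar at the next base, 14.8% of the 472 sites, stands far above all others, of which the highest is 2.12% at 5 nt upstream.

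Seen from the DRACH side, double listing was uncommon and uneven. Of 2707 listed sites at GAACT or its GAACA and GAACC relatives, which all have an A directly before the methylated one, 69 (2.55%, 2.02 to 3.21) had that preceding A listed as well. These 69 comprised 67 of 1880 sites at GAACT (3.56%, 2.82 to 4.50), 1 of 519 at GAACA (0.193%, 0.0340 to 1.08) and 1 of 308 at GAACC (0.325%, 0.0573 to 1.82). In 3′ UTRs the preceding A was listed at 65 of 1402 sites (4.64%, 3.65 to 5.87), in coding sequence at 1 of 1061 (0.0943%, 0.0166 to 0.532) and in 5′ UTRs at 0 of 63 (upper Wilson bound 5.75%). The share also varied with the base in front of GAAC: with T the share was 4.41% (3.24 to 5.97), with G 2.91% (1.93 to 4.37), with A 0.912% (0.463 to 1.79), and with C 0 of 190 (upper bound 1.98%). The DRACH sites with a listed neighbour had a median score of 0.921 (0.669 to 0.991), against 0.788 for the others. At GAACT in 3′ UTRs the share went from 0 of 87 at DRACH scores below 0.7 to 47 of 369 (12.7%, 9.72 to 16.5) at 0.9 and above. At the same scores of 0.9 and above, 0 of 84 coding GAACT sites had one (upper bound 4.37%). Region and sequence entered the score of both sites of a pair, and their part in these shares was not tested.

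Listed DRACH sites were closer to these sites than to other DRACH sites, in a count that favours these sites, and the odds ratio was smaller without the adjacent pairs. The pairs are included below unless stated. A DRACH site was not counted as its own neighbour, so it had 1 candidate fewer than a site without C in the same transcript. DRACH motifs also cannot lie directly next to each other. The part of both in the comparison with DRACH sites was not tested. Along the spliced transcript, the nearest other listed DRACH site was at a median of 39 nt (quartiles 12.8 and 94.3, n = 440) against 65 nt for DRACH sites (27 and 162), with 1 nt for sites followed by A, 50 nt for T and 54 nt for G. A listed DRACH site within 50 nt was found for 56.3% of these sites in coding transcripts and 39.95% of DRACH sites (odds ratio 1.94, 1.59 to 2.37, n = 449, p = 5.95e-11, adjusted 1.19e-10, same regression). For the other sites followed by C, all listed DRACH sites of the transcript were candidates too. Of these sites 38.4% had one within 50 nt (odds ratio of the 449 sites against them 2.07, 1.66 to 2.58). Without the adjacent pairs, a comparison added once the pairs had been seen, the odds ratio was 1.43 (1.15 to 1.77, n = 382, p = 0.00117, same regression). Within 10 nt, pairs included, it was 3.15 (2.50 to 3.98), and no value without the pairs was made there. A listed DRACH site within 10 nt was found for 85.2% of exonic sites followed by A, 10.2% of those followed by T and 5.36% of those followed by G. For DRACH sites it was 8.77%. No DRACH site was listed in the transcript of 12 of the 452 exonic sites (2.65%, 1.53 to 4.58). The transcript held no other one for 5.35% of DRACH sites (5.01 to 5.71) and none for 4.08% of other sites followed by C (3.21 to 5.18).

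**Figure D5:**
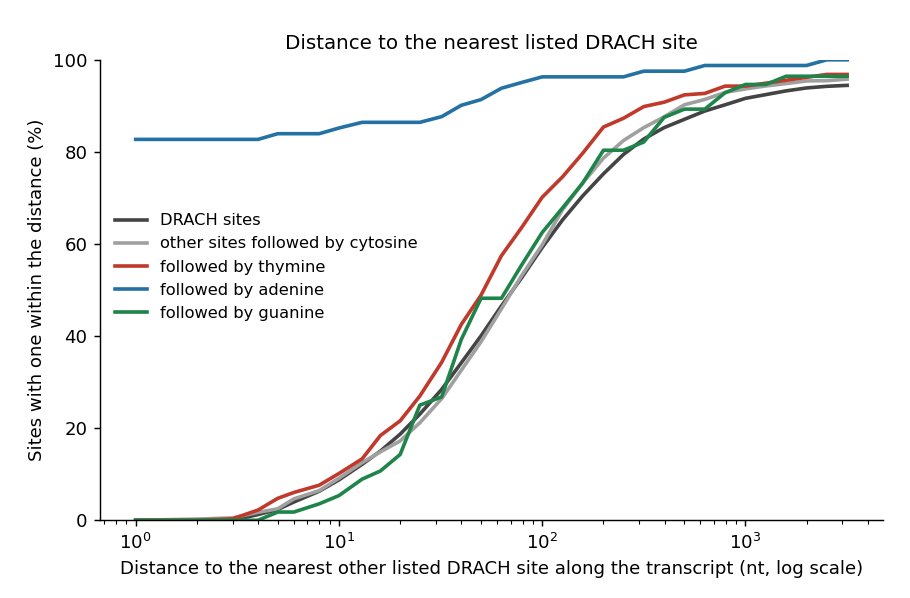
Cumulative percentage of exonic sites (y axis) with another listed DRACH site within a given distance along the transcript (x axis, nt, log scale), for the same 5 groups as the score curves. The curve for adenine starts at 82.7% at 1 nt, and at 50 nt thymine stands at 48.9%, guanine at 48.2% and DRACH at 40.0%.

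The 472 sites fell in 412 genes, 10.7% (9.74 to 11.7) of the 3859 genes that held any site. Of these 412 genes, 362 had 1 such site, 41 had 2, 8 had 3 and 1 had 4. The share of genes with one was higher where more DRACH sites were listed, from 4.42% (3.24 to 6.01) of 860 genes with 1 DRACH site through 6.46% (5.20 to 8.0) at 2 to 3 and 13.2% (11.3 to 15.3) at 4 to 7 to 21.96% (18.7 to 25.6) at 8 to 15. A gene with at least 1 of the 472 sites had a median of 5 DRACH sites, the other genes 3. Per 100 DRACH sites, however, there were 4.65 sites without C in genes with 1 DRACH site and 2.42 in genes with 8 to 15.

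WDR6, whose WD-repeat protein assists tRNA methylation, was the gene with 4 sites. All 4 were GGATT in the coding part of exon 2, with scores of 0.626, 0.615, 0.558 and 0.516, and they lay between 255 and 1118 nt from the nearest junction. The 2 with the highest scores read as follows.
WDR6 (chr3:49012742-49012762, plus strand): agggcttcggATtgtgtgcta
WDR6 (chr3:49011879-49011899, plus strand): gtctgactggATttgggatgc

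Among genes with 3 sites, LTBR, the lymphotoxin beta receptor, had all 3 at GGATT in its 3′ UTR with scores of 0.745, 0.646 and 0.591, between 77 and 376 nt after the stop codon. The kinase gene ARAF had GGATT sites of 0.722 and 0.615 and an AAATT site of 0.60 in its 3′ UTR. RNF187 combined GGATT sites of 0.681 and 0.564 with a GGAAC site of 0.519 next to a listed DRACH A. TNIP1, which restrains NF-kappaB signalling with the ubiquitin-editing protein TNFAIP3, had 3 different pentamers, TAATT at 0.632, GGATA at 0.550 and TGAGT at 0.532. In TNFRSF6B, a decoy receptor for the death ligand FASLG, 1 site was coding (GGAAC, 0.571) and 2 were in introns of the chosen transcript (GGATT, 0.577 and 0.517), where a readthrough gene overlaps and the placement depends on the transcript chosen. ATG9A had a pair of sites side by side, GGAAT at 0.631 and GAATT at 0.549, and a GGAGG site of 0.515. Such a pair without DRACH occurred 3 times among the 472 sites.

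Listed sites without any DRACH site in the gene were found in 11 genes (2.67% of the 412), with 1 site each. Genes without a listed DRACH site also occurred among the other host genes. Of all 3859 host genes, 860 had 1 listed DRACH site, 1192 had 2 to 3, 1094 had 4 to 7, 560 had 8 to 15 and 77 had at least 16. The rest had none, and the 2.67% was not tested against their share. GGATT was the pentamer in 6 of them, of which 1 with a higher score than the rest is not reported here and the other 5 were EEF1G (0.679), TMEM120A (0.659), KIAA1191 (0.644), POM121C (0.555) and FAM53B (0.530). EEF1G encodes the gamma subunit of translation elongation factor 1, and its site was coding. POM121C has near-identical copies in the genome, and although the authors kept uniquely mapping reads, whether these tell the copies apart at this site was not tested. The other 5 were in the splicing factor gene SF3B2 (0.568) and in TSPAN4, GNPDA1, SELENOW and RPL7L1, with scores from 0.509 to 0.535.

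The 4 gene lists held few of these sites. Of 25 genes for m6A writers, readers and erasers 3 held any listed site, and 0 of these 3 held one without C. Of 16 extracellular matrix genes with any site 3 did, namely AGRN (0.594), COL5A1 (0.516) and COL4A2 (0.511). Of 17 chromatin enzyme genes 3 did, namely HDAC7 (0.596), KAT2A (0.588) and SETD1A (0.538). Of 19 immediate early and MAPK feedback genes 4 did, the ERK phosphatase gene DUSP5 (TGAAC, 0.577), IER3 (TGAAC, 0.571) and the AP-1 subunit genes FOSL1 (GGATC, 0.546) and FOSL2 (AGAAC, 0.528). Set beside the 10.7% of all host genes, counts of 3 or 4 are too small to read a difference from, and no test was made. The list sites of DUSP5, IER3, HDAC7 and FOSL2 were each followed by AC, the form that lies next to a DRACH A.

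Few of these sites lay at transcript starts or in introns. Within 5 nt of an annotated transcript start, where the cap-adjacent m6Am would lie, there was 1 of the 472 sites (0.212%, 0.0374 to 1.19), in the mitotic kinase gene PLK1 with a score of 0.533, against 0.576% of DRACH sites (0.472 to 0.703). With the starts of the chosen host transcripts only, it was 0. None of the 452 exonic sites had C after the A once introns were removed, so no exon end turned one of them into a DRACH site. Introns held 6 of the 472 sites (1.27%, 0.584 to 2.75), against 0.630% of DRACH sites (0.521 to 0.762), a higher share with intervals that overlapped. The 6 intronic sites were in FBXO17 (GAATT, 0.661), SOGA1 (GGATT, 0.623), ZSWIM9 (GGATT, 0.587), EEF2 (GAATT, 0.528) and the 2 in TNFRSF6B.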

How the data were processed

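The authors mapped reads to GRCh38.p12 with STAR (2.7.3a), removed duplicates with UMI-tools (1.0.0), called PureCLIP peaks per replicate, kept those present in at least 2 replicates and classified peaks at A with m6Aboost from the 21-nt sequence, transcript region, signal relative to the gene and C-to-T counts. The deposited list pools the replicates and gives each site's score as a fraction from 0 to 1, without read counts, rejected peaks or values per replicate, so a site can be listed only where a gene is expressed well enough to give peaks.

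Bases were read from GRCh38 on the site's strand. Host transcripts came from GENCODE release 44 (the authors used release 31): the longest spliced transcript of a gene with transcript support level up to 3 and annotation level up to 2, protein-coding transcripts first in protein-coding genes, a preference set after a first placement had put many sites in retained-intron transcripts. Of the 472 sites 18 were exonic in more than 1 candidate gene. The 3′ UTR began after the stop codon. Stop codon distances of single sites and the stop codon windows were counted from its first base, and the 3′ UTR medians from its last base. The 4 tests were two-sided logistic regressions (statsmodels 0.14.6) with errors clustered by host gene and Benjamini-Hochberg adjustment, tested on simulated data, with a threshold of 0.05. Their p-values measure the spread between genes of 1 pooled list. Other tools were Python 3.11.15, pandas 2.3.3, scipy 1.17.1, pysam 0.24.0 and matplotlib 3.10.9. Sites, gene lists and tests were chosen with earlier results of these data known. Named were the 8 genes richest in these sites, the 3 top scores for each following base, the 3 lowest, the 10 most frequent pentamers, the 6 highest scores within 5 nt of a listed DRACH site, sites at transcript starts or in introns, and list genes. The genes without a DRACH site were named after their values were seen. A few named sites are not reported here.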

Additional observations from a re-analysis of the deposited data

How the results depend on the processing

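Over 9 results and 44 alternatives, 30 kept direction and side of the threshold or stayed near the reported value. Every alternative kept the odds ratio for 3′ UTRs (2.06 to 6.98) and for a DRACH site within the window (1.43 to 3.15) past the threshold. The stop codon comparison turned above 1 with the other sites followed by C (1.06), in genes with both kinds of site (1.14) and at 400 nt (1.35). The junction comparison no longer passed at a score of at least 0.6 (1.59) or a window of 200 nt (1.46). The median score difference from DRACH sites, -0.22, was -0.10 against other sites followed by C, -0.18 for means, -0.24 without GGATT and -0.24 within genes with both kinds. At a score of at least 0.6 the 472 sites became 136, the share of host genes 3.46% and the listed share of GGATT 1.18%; at 0.7 there were 24 sites. The share at transcript starts was 0 with host transcripts only. With a window of 50 nt it was 1.06%, against 0.212% in the main setting, and this alternative is counted among the 30. Leaving out the adjacent pairs, and leaving out GGATT against other sites followed by C, were chosen after seeing the data. No replicate could be left out of a pooled list. No paired analysis was possible because the list holds no values per replicate. Depth per site is unknown, so the scores carry no error.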
